A study of Rattus norvegicus with 24 samples.

Results

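The comparison described here is that of rat hepatocytes kept between 2 layers of collagen gel, called sandwich, with rat hepatocytes kept on 1 layer, called monolayer, at day 8 of culture. It rests on 6 of the 24 arrays of the series, 3 per culture, which were taken by the culture and day in the sample labels. The comparison itself and the gene lists below were chosen with earlier results of these data known. Cells were seeded on collagen-coated wells. For the sandwich, a second layer of collagen was laid over the cells the next day, and days 1, 2, 3 and 8, the 4 days at which RNA was taken, count from that step. Both cultures received the same medium, a DMEM base with fetal bovine serum, epidermal growth factor, insulin, glucagon and hydrocortisone, which was renewed daily, so the groups share every listed agent and differ in the second layer. The labels treat the sandwich as the stable and the monolayer as the unstable form of the culture. They give no strain, sex or age, and do not say whether the 3 arrays of a culture stand for different animals, different preparations or one. The p-values therefore rest on the spread between arrays of the same group, estimated over all 24 arrays, and this spread may be technical.

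Hepatocytes are the main cells of the liver. They make most plasma proteins, turn ammonia into urea, store and release glucose, build lipids and bile acids, and clear drugs. Freshly isolated hepatocytes spread on a flat substrate, build actin stress fibres and lose many of these functions within days, while a gel overlay restores contact with matrix on both faces of the cell and is known to preserve cell polarity and bile canaliculi.

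Levels are log2 probe set values from a rat Affymetrix array, normalized between arrays by the authors, and a gene was read by 1 probe set. A difference is sandwich minus monolayer on the log2 scale, given with the standard error (SE) of a limma model fitted to all 24 arrays; a mean level is given with its SD over 3 arrays. A gene is called higher or lower when its Benjamini-Hochberg adjusted p over 31042 probe sets is under 0.05. The medians of the 6 arrays lay between 5.602 and 5.668. Across probe sets, which are not independent replicates, arrays of one culture correlated with a Pearson r of 0.993 to 0.995 and arrays of the 2 cultures with 0.968 to 0.975. The files hold no detection calls, so a fold is printed only where the lower mean lies above 5.62, the median of all values. RNA quality was read from the control probe sets for beta-actin. Their 3′ signal exceeded their 5′ signal by 1.21, 0.94 and 0.90 in sandwich and by 0.78, 0.88 and 0.85 in monolayer, without overlap. For GAPDH the same excess was 0.46, 0.29 and 0.39 against 0.37, 0.26 and 0.27, with overlap. The 3′ beta-actin level itself was 13.04 to 13.27 in sandwich and 13.75 to 13.94 in monolayer. The part of this in the results was not tested.

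The cultures differed in a large share of the genes measured. Of 14217 genes, 2215 were higher in sandwich, which is 15.6% of them, 2943 were lower, which is 20.7%, and 9059 were not called. The counts of list members given below are to be read beside these shares. Over single probe sets, 8543 of 31042 were called, or 27.5%. The 3 arrays of one culture all lay above the 3 of the other for 6532 genes, 45.9% of those measured. Most called differences were small. A fitted difference of at least 1 on the log2 scale was found in 463 higher and 399 lower genes, of at least 2 in 104 and 74, of at least 3 in 25 and 18, and of at least 4 in 3 and 8. These counts include genes with a mean under 5.62 in one culture, for which no fold is printed. The median difference over all genes was 0.003, in values that the authors had already normalized between arrays, so a shift of all genes together could not be seen. The median SE of a difference was 0.11, and the median SD over the arrays of a culture was 0.12 both ways.

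**Figure D1:**
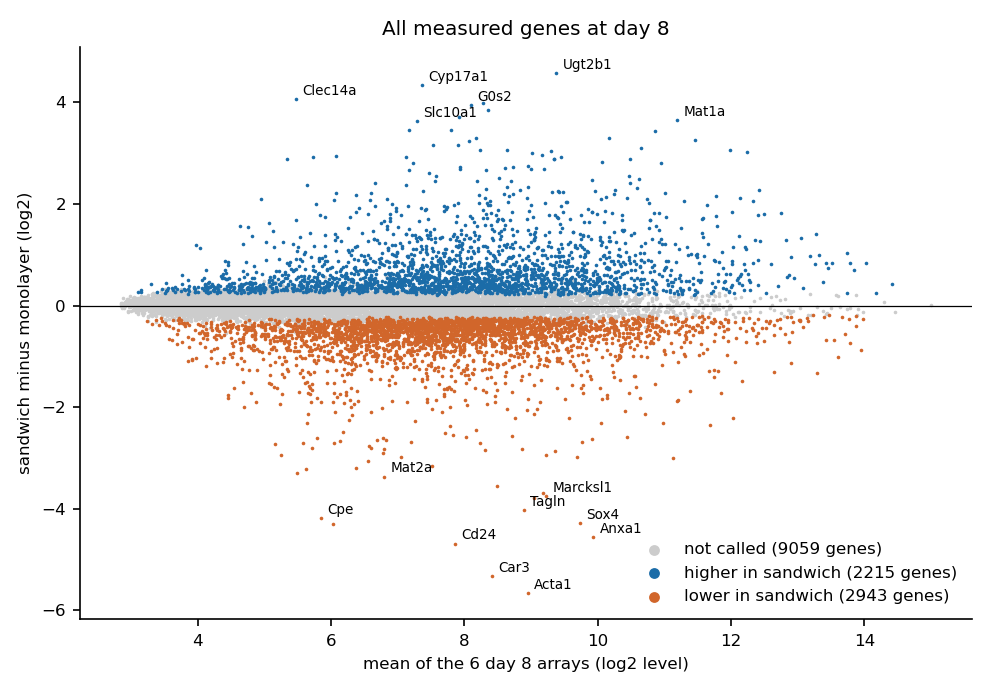
Difference between the cultures (sandwich minus monolayer, log2, vertical axis) against the mean level of the 6 day 8 arrays (log2, horizontal axis) for the 14217 measured genes, 1 point per gene. Blue points are the 2215 genes called higher in sandwich, orange points the 2943 called lower and grey points the 9059 not called; some of the genes with the largest differences are named.

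The largest rise belonged to Ugt2b1, an enzyme that joins glucuronic acid to steroids and drugs. Its level was 11.78, 11.64 and 11.57 on the sandwich arrays and 7.14, 7.31 and 6.81 on the monolayer arrays. The groups were far apart, with a difference of 4.58 ± 0.12, a 23.9-fold higher level in sandwich (adjusted p = 3.33e-18). Cyp17a1, a steroid 17-hydroxylase of the endoplasmic reticulum, read 9.53, 9.61 and 9.44 in sandwich and 5.13, 5.66 and 4.76 in monolayer, a difference of 4.34 ± 0.17. Its monolayer mean lay under the median of all values, so no fold is given. G0s2, an inhibitor of the lipase that empties lipid droplets, differed by 3.95 ± 0.12 and was 15.4-fold higher in sandwich. In the opposite direction, the gene furthest apart was Acta1, the skeletal muscle form of actin, at 6.65, 5.91 and 5.80 in sandwich and 11.74, 11.77 and 11.81 in monolayer. Its monolayer arrays lay close together and the sandwich arrays were spread more widely, and the difference was -5.66 ± 0.30, 50.5-fold lower in sandwich. Car3, a carbonic anhydrase of muscle, fat and liver, differed by -5.32 ± 0.17, and Cd24, a surface glycoprotein of progenitor and ductal cells, by -4.68 ± 0.21. Sox4, a transcription factor of embryonic and progenitor tissue, differed by -4.28 ± 0.18, and Marcksl1, which tethers actin to the membrane, by -3.76 ± 0.16.

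**Figure D2:**
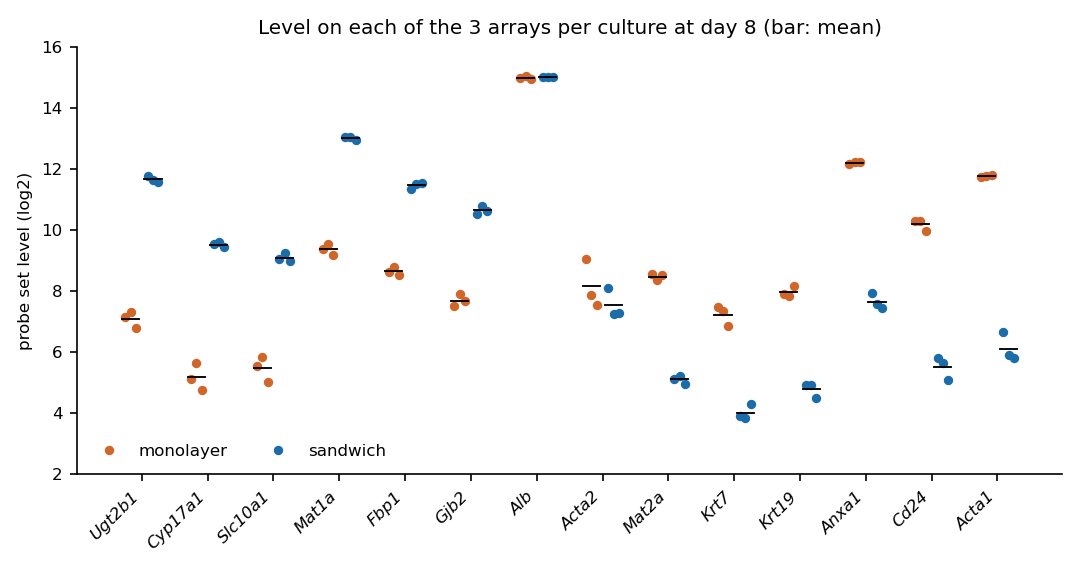
Probe set level (log2, vertical axis) of 14 genes on each of the 3 sandwich (blue) and 3 monolayer (orange) arrays of day 8, with black bars at the means. Ugt2b1, Cyp17a1, Slc10a1, Mat1a, Fbp1 and Gjb2 lie higher in all 3 sandwich arrays, Mat2a, Krt7, Krt19, Anxa1, Cd24 and Acta1 lie lower, and Alb and Acta2 overlap.

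Methionine metabolism held a pair of related genes called in opposite directions. S-adenosylmethionine, the methyl donor of the cell, is made by an enzyme encoded by Mat1a in adult hepatocytes and by Mat2a in fetal liver, dividing cells and other tissues. Mat1a read 13.06, 13.04 and 12.96 on the sandwich arrays and 9.38, 9.55 and 9.18 on the monolayer arrays. Mat2a read 5.13, 5.23 and 4.97 in sandwich and 8.55, 8.36 and 8.52 in monolayer. Neither gene overlapped between the cultures. Mat1a was 12.5-fold higher in sandwich, with a difference of 3.65 ± 0.11 (adjusted p = 1.7e-17), and Mat2a differed by -3.37 ± 0.11 (adjusted p = 1.7e-17). The larger changes from day 3 to day 8 lay in different cultures. Mat1a changed by -2.12 ± 0.11 in monolayer and by 0.26 ± 0.11 in sandwich, the second not called. Mat2a changed by 0.33 ± 0.11 in monolayer and by -2.51 ± 0.11 in sandwich, both called. The 120 bases before each start are shown to set the 2 promoters side by side. They come from RefSeq on build GRCr8, at chr16:17017048-17017167, plus strand for Mat1a and chr4:106053613-106053732, minus strand for Mat2a, and are read 5′ to 3′ on the gene's strand. Capitals mark GGGCGG, the core of an SP1 site, searched on both strands.
Mat1a: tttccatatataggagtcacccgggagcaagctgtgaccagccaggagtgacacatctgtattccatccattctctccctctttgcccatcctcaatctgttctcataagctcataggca
Mat2a: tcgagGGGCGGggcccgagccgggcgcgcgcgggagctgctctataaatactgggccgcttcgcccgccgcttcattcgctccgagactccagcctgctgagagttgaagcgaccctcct
Mat2a holds 1 such match and Mat1a none in its 300 base window, and Mat2a alone of the pair also holds a TATAAA in that window. GGGCGG occurred in 57.5% of the 11700 measured genes with a promoter window, in 49.7% of those higher in sandwich by at least 1 on the log2 scale and in 68.8% of those lower by that much. TATAAA occurred in 8.45%, 10.4% and 8.56%. These are matches of letters, not sites shown to be bound.

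The list of methionine, one-carbon and taurine genes ran in the direction of Mat1a. Of 18 measured members 16 were higher in sandwich, and the median difference was 1.72, beside 0.003 over all genes. Gnmt, which disposes of surplus S-adenosylmethionine, differed by 2.69 ± 0.11. Bhmt2, which turns homocysteine back into methionine, differed by 2.28 ± 0.11. Cdo1, the first enzyme on the way from cysteine to taurine, differed by 2.56 ± 0.10, and Pemt, which spends S-adenosylmethionine to make phosphatidylcholine, by 2.73 ± 0.13.

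Urea cycle genes were almost uniformly higher in sandwich. All but 1 of the 12 measured members were called higher, with a median of 1.74 that compares with -0.01, 0.33 and 0.75 for the same genes at days 1, 2 and 3. Cps1, which fixes ammonia in the mitochondrion, read 12.36, 12.39 and 12.23 in sandwich and 10.23, 10.67 and 9.88 in monolayer, a 4.17-fold difference. The later steps differed by 2.26 ± 0.15 for Otc, 1.42 ± 0.14 for Ass1, 2.20 ± 0.09 for Asl and 2.13 ± 0.11 for Arg1. The ornithine carrier Slc25a15 differed by 2.12 ± 0.16, the aspartate carrier Slc25a13 by 1.07 ± 0.13, and Nags, which makes the activator of Cps1, by 0.96 ± 0.09. Car5a, which supplies bicarbonate to Cps1, differed by 2.10 ± 0.10. The exception was Glul, the glutamine synthetase that captures ammonia around the central vein, at 9.91 ± 0.10 in sandwich and 9.85 ± 0.11 in monolayer (difference 0.06 ± 0.09, adjusted p = 0.681). Gls2 and Glud1, which release ammonia from glutamine and glutamate, differed by 1.32 ± 0.10 and 0.63 ± 0.09.

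Amino acid breakdown had the same direction. In the tyrosine pathway 5 of 6 genes were higher. Tat, the entry step, differed by 2.15 ± 0.12, Hpd by 0.82 ± 0.08, Hgd, which opens the ring of homogentisate, by 3.06 ± 0.13, Gstz1 by 1.45 ± 0.12 and Fah, the last step, by 1.65 ± 0.12. Hgd was 8.34-fold higher, the furthest of the 5. In the route from tryptophan to NAD 7 of 8 were higher. Tdo2, which opens the indole ring, differed by 1.80 ± 0.12, Afmid by 1.28 ± 0.13, Kynu by 0.94 ± 0.11, Kmo by 1.17 ± 0.14 and Haao by 1.71 ± 0.10. Aadat, on the side branch to kynurenic acid, differed by 1.99 ± 0.11, and Acmsd, on the branch that burns the intermediate, by 1.05 ± 0.12. Qprt, the step that commits the intermediate to NAD, stood at 0.24 ± 0.09 (adjusted p = 0.0542) and was not called, though it was in 6 of the alternatives run, among them the replicate number as a block (adjusted p = 0.0291) and leaving out monolayer replicate 2 or sandwich replicate 1. In histidine, serine, glycine and proline breakdown 13 of 16 genes were higher. Ftcd, which passes the carbon of histidine to folate, read 9.84, 9.89 and 9.59 against 6.29, 6.47 and 5.44, a 13.1-fold difference, and Uroc1, an earlier step of the same route, differed by 2.50 ± 0.19. For branched chain and lysine breakdown 15 of 16 were higher, with Bckdhb, a subunit of the complex that decarboxylates the keto acids, at 1.64 ± 0.09. The transaminases Agxt, Got1 and Gpt differed by 2.02 ± 0.08, 3.11 ± 0.10 and 1.52 ± 0.11. Urad, which works in the breakdown of uric acid to allantoin, differed by 3.30 ± 0.18 and was 9.82-fold higher in sandwich.

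Several steps of metabolism are carried out by one enzyme in adult liver and by relatives in other tissues. Of 19 liver forms measured, 14 were higher in sandwich, none was lower and 5 were not called. Of 32 other forms of those and similar steps, 7 were higher, 12 lower and 13 not called. Fbp1, the liver fructose bisphosphatase, read 11.34, 11.51 and 11.56 in sandwich and 8.62, 8.78 and 8.54 in monolayer, 7.09-fold apart, while its muscle relative Fbp2 stood at 0.15 ± 0.09 and was not called. Gys2, the liver glycogen synthase, differed by 2.45 ± 0.14, and Gys1 stood at -0.06 ± 0.12, not called. Pygl, the liver glycogen phosphorylase, differed by 1.05 ± 0.09 and Pygb, the brain form, by -0.96 ± 0.10, called in opposite directions. The same held for Cpt1a (0.86 ± 0.10), the liver gatekeeper of fatty acid entry into mitochondria, against Cpt1c (-0.67 ± 0.10), a form of brain. Fabp1, the liver fatty acid binding protein, read 8.94, 8.95 and 8.81 against 5.52, 5.51 and 5.30, a difference of 3.46 ± 0.18, and Fabp7, the brain form, differed by -1.69 ± 0.17. Pfkfb1 (2.15 ± 0.11) was higher and Pfkfb2, Pfkfb3 and Pfkfb4 were not called. Pfkm, the muscle phosphofructokinase, differed by -1.02 ± 0.10, while the liver form Pfkl stood at 0.52 ± 0.39 and was called only in the fits with the replicate number as a block (adjusted p = 0.00107).

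The pattern was not general. Slc2a2, the liver glucose carrier, was higher by only 0.41 ± 0.09. Acaca, the cytosolic acetyl-CoA carboxylase of fat synthesis, differed by 1.84 ± 0.14, and Acacb, the mitochondrial form that is counted here as liver type, stood at 0.23 ± 0.11 and was called only with that block (adjusted p = 0.036). Fabp5, a skin form, differed by 0.70 ± 0.11, and Acsl3 and Acsl4, general acyl-CoA synthetases, by 0.81 ± 0.13 and 0.63 ± 0.15. Among FGF receptors the liver form Fgfr4 stood at -0.04 ± 0.11, not called, while Fgfr2 differed by 1.80 ± 0.14, Fgfr3 by -1.37 ± 0.11 and Fgfr1 by -0.58 ± 0.09. Hk1, a hexokinase of most tissues, was higher by 0.47 ± 0.12 on the probe set used, but another of its probe sets was lower.

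**Figure D3:**
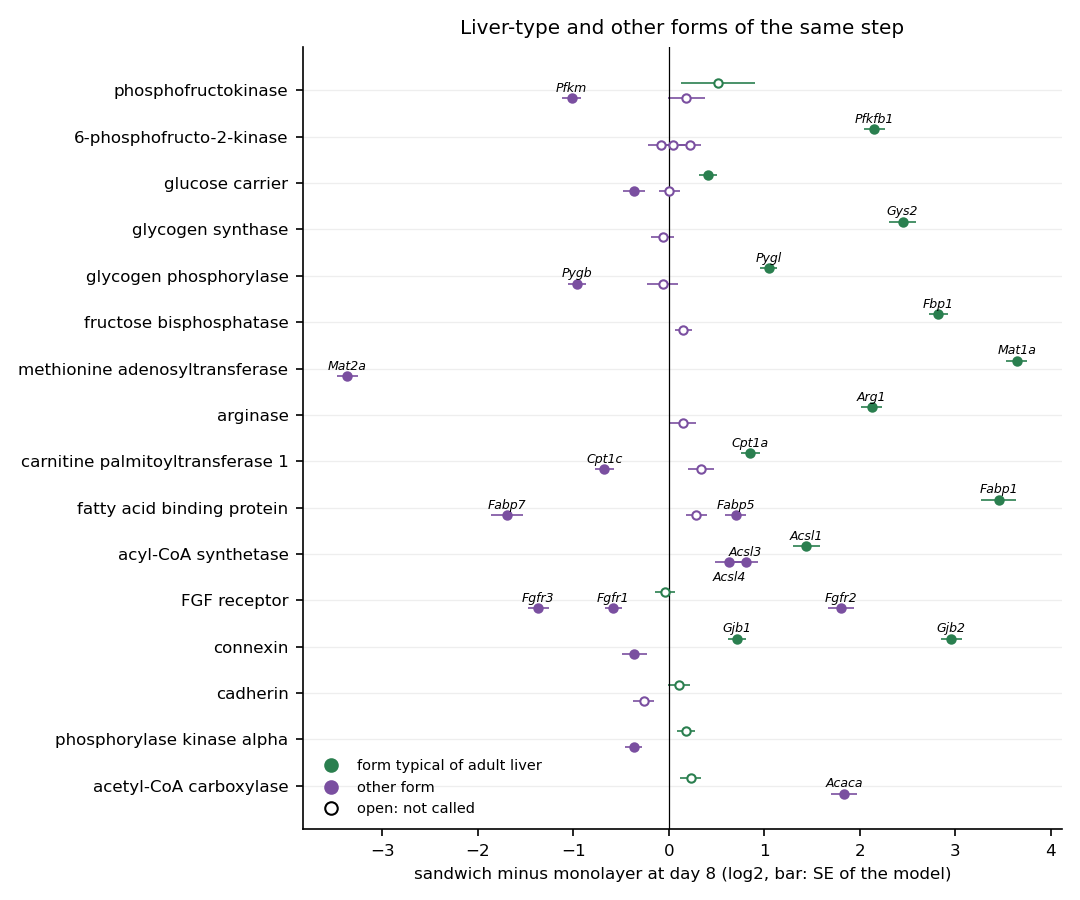
Difference between the cultures at day 8 (log2, horizontal axis, bars give the SE of the model) for liver-type forms (green) and other forms (purple) of the steps with both kinds measured, where open points were not called. Mat1a and Mat2a lie furthest apart, at 3.65 and -3.37, and no liver form lies to the left of 0 except Fgfr4 at -0.04.

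Glucose production genes were higher in sandwich for 11 of 15 members, led by the liver forms above. Pc, which carboxylates pyruvate, differed by 1.92 ± 0.13, and Gbe1, the glycogen branching enzyme, by 1.47 ± 0.09. Of the fructose, galactose and glycerol genes 6 of 12 were higher, with Khk at 1.30 ± 0.11, Tkfc at 1.86 ± 0.11, the glycerol kinase Gk at 1.96 ± 0.13, Gpd1 at 1.91 ± 0.10 and the glycerol channel Aqp9 at 1.39 ± 0.11. Rgn and Akr1a1, of the pathway to ascorbate, differed by -0.66 ± 0.14 and -0.49 ± 0.08. Glycolysis was mixed, with 9 of 23 genes higher (39.1%) and 5 lower (21.7%), beside 15.6% and 20.7% of all genes. The liver pyruvate kinase Pklr differed by 1.46 ± 0.13. The count of lower glycolysis genes rested on single arrays: it was 3 without monolayer replicate 1, monolayer replicate 3 or sandwich replicate 1 and 2 without sandwich replicate 3.

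**Figure D4:**
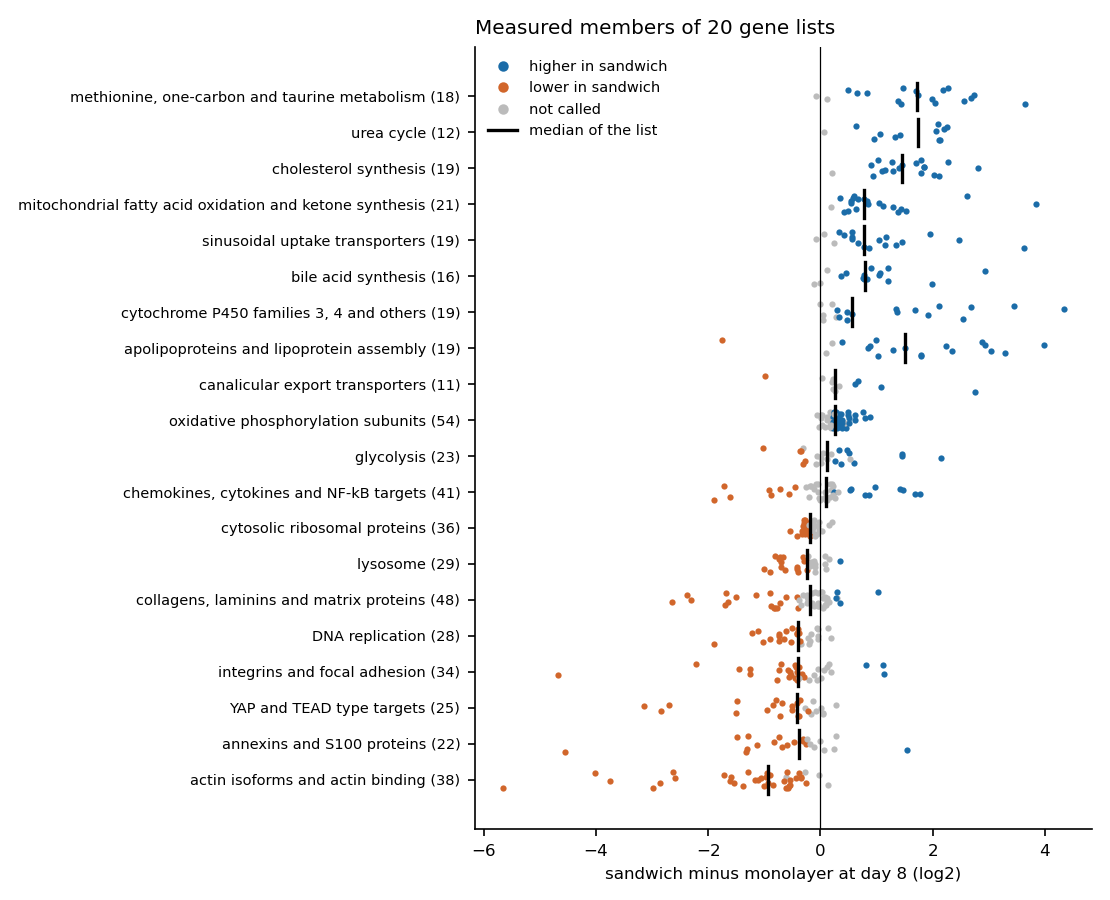
Difference between the cultures at day 8 (log2, horizontal axis) for each measured member of 20 gene lists, the number measured in brackets. Points are blue where called higher in sandwich, orange where called lower and grey where not called, and black bars are list medians, which run from 1.74 for the urea cycle to -0.94 for actin and its binding proteins.

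Cholesterol synthesis was higher in sandwich at nearly every step, 18 of 19 members, 16 of them by at least 1 on the log2 scale, and with a median of 1.45. At days 1, 2 and 3 the median of the same genes was 0.32, 0.92 and 1.05. Idi1, which isomerizes the isoprene unit, read 10.48, 10.57 and 10.56 in sandwich and 8.45, 8.53 and 7.83 in monolayer, 4.81-fold apart. Fdps, which joins isoprene units into farnesyl diphosphate, differed by 1.85 ± 0.09. Lss, which closes the sterol rings, differed by 2.02 ± 0.11, and Cyp51, which takes a methyl group off lanosterol, by 2.11 ± 0.11. Insig1, a sterol sensor that is itself a target of the pathway's transcription factor SREBP, differed by 2.81 ± 0.13. A CCAAT box is a known feature of promoters of this pathway, and 120 bases before the start of 3 of its genes are shown to place it, from RefSeq on GRCr8, read 5′ to 3′ on the gene's strand. They lie at chr17:66547525-66547644, minus strand for Idi1, chr2:176804817-176804936, minus strand for Fdps and chr20:12118231-12118350, minus strand for Lss. Capitals mark CCAAT or, where the match is on the other strand, ATTGG.
Idi1: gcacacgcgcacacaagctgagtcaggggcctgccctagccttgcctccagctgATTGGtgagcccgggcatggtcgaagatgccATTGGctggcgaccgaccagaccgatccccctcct
Fdps: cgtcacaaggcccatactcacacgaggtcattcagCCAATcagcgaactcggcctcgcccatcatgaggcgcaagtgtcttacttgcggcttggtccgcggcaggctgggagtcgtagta
Lss: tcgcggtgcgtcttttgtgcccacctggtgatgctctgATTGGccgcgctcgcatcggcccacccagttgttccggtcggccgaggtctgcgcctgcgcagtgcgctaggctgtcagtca
None of these matches overlaps another motif searched. CCAAT was found in 13 of the 15 promoter windows of 300 bases on the list, or 86.7%, against 37.7% of all 27457 windows and 37.3% of measured genes. GGGCGG was found in as many windows of the list. TCACNCC, the core of a sterol regulatory element, was found in 4 of 15 against 15.8% of measured genes, and in none of the 3 windows shown.

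Fatty acid and triglyceride synthesis was higher for 19 of 23 genes. Thrsp, a regulator of lipogenesis, read 12.84, 13.29 and 13.16 against 9.84, 10.25 and 9.42, 9.58-fold apart. Scd, which puts the double bond into stearate, differed by 3.07 ± 0.14, Acss2, which activates acetate, by 2.68 ± 0.12, Lpin1, which makes diacylglycerol, by 2.89 ± 0.12, and the desaturase Fads2 by 1.91 ± 0.10. Genes that burn fat were higher in the same cultures. In mitochondrial oxidation and ketone synthesis 20 of 21 were higher, Cpt2 by 1.52 ± 0.11, Acaa2 by 1.38 ± 0.10 and Eci1 by 1.12 ± 0.08. Pdk4, the kinase that shuts pyruvate out of the mitochondrion, read 10.07, 10.57 and 10.17 against 6.35, 6.53 and 6.40 and was 14.3-fold higher. Fgf21, a fasting hormone made by the liver, differed by 2.61 ± 0.11. In peroxisomes 13 of 16 genes were higher, among them Ehhadh (2.0 ± 0.15), Pex11a, which divides peroxisomes (2.45 ± 0.11), Acot4 (2.45 ± 0.14) and Hacl1 (1.59 ± 0.11). Crot, which carries shortened chains out of the peroxisome, was the 1 lower member (-0.75 ± 0.15). Lipid droplet genes were higher for 11 of 17, with Hsd17b13 at 2.28 ± 0.11 and Plin2 at 0.98 ± 0.09.

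Bile acid synthesis was higher for 13 of 16 genes. Cyp8b1, the 12-hydroxylase that makes cholic acid, read 8.61, 8.80 and 8.38 in sandwich and 5.72, 5.48 and 5.78 in monolayer, 7.65-fold apart. Cyp27a1, of the alternative route, differed by 1.21 ± 0.09, Scp2, which shortens the side chain, by 1.21 ± 0.08, and Baat, which adds glycine or taurine, by 1.05 ± 0.12. Cyp7a1, the rate-limiting enzyme of the classic route, was low in both cultures, at 4.67 ± 0.04 and 4.30 ± 0.16, and its difference of 0.36 ± 0.11 was not called without monolayer replicate 1.

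Transporters were read by the face of the hepatocyte they serve. On the sinusoidal face, which takes solutes from blood, 16 of 19 uptake genes were higher. Slc10a1, which brings bile acids in with sodium, read 9.07, 9.26 and 8.97 in sandwich and 5.53, 5.84 and 5.04 in monolayer, with every monolayer array at least 3 log2 units below every sandwich array. Slc27a2, which imports fatty acids, differed by 2.47 ± 0.11, the prostaglandin carrier Slco2a1 by 1.96 ± 0.12, and Slc22a7, an organic anion carrier, by 1.15 ± 0.09. On the canalicular face, which exports into bile, 4 of 11 genes were higher and 1 lower. Abcb11, the bile salt export pump, differed by 2.76 ± 0.16 and was 6.77-fold higher. Abcb4, which exports phosphatidylcholine, differed by 1.08 ± 0.11, and the water channel Aqp8 by 0.62 ± 0.08. Abcb1a, higher by 0.67, was not called without monolayer replicate 2 or 3, or without sandwich replicate 1 or 2. Abcc2, which exports conjugated bilirubin, ran the other way, at 10.94, 10.76 and 10.71 in sandwich and 11.88, 11.66 and 11.86 in monolayer, a difference of -0.99 ± 0.10. Abcg5 and Abcg8, which export cholesterol together, stood at 0.23 ± 0.13 and 0.03 ± 0.12 and Abcg2 at 0.21 ± 0.13, none called. Of 7 basolateral exporters, which send solutes back to blood, 3 were lower, with Abcc1 at -0.58 ± 0.11 and Abcc4 at -1.14 ± 0.15, and Abcc6 was higher at 0.63 ± 0.10. The third lower exporter, Abca1, at -0.39 ± 0.12, was not called without monolayer replicate 3 or without sandwich replicate 3.

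Cytochrome P450 genes were largely higher in sandwich, 16 of 23 in families 1 and 2 and 14 of 19 in the other families. Cyp3a23-3a1, a main drug-oxidizing form of the rat, read 12.78, 12.49 and 12.49 against 9.13, 9.30 and 9.0, 10.9-fold apart. Cyp2c7 and Cyp2c6v1 differed by 2.49 ± 0.19 and 2.06 ± 0.18, Cyp2e1, which oxidizes ethanol and paracetamol, by 2.12 ± 0.18, and Cyp4a1 and Cyp4a3, which hydroxylate fatty acids, by 2.55 ± 0.14 and 2.68 ± 0.10. Related P450 genes are near-identical in sequence in places, so a probe set may read more than 1 of them. Of glucuronosyltransferases and sulfotransferases 11 of 19 were higher and 2 lower. Sult2a2, a bile acid and steroid sulfotransferase, differed by 3.47 ± 0.26 and Ugt2a1 by 2.08 ± 0.14. The 2 synthases of active sulfate were called in opposite directions, Papss2 at 1.37 ± 0.11 and Papss1 at -1.26 ± 0.08. Among glutathione genes 13 of 23 were higher and 5 lower. Gsta3 differed by 2.18 ± 0.15, Gstm2 by 1.71 ± 0.21 and Gstm3 by 2.15 ± 0.18. Gstp1, which normal hepatocytes hardly express and which marks preneoplastic foci of rat liver, read 10.86, 10.94 and 10.97 in sandwich and 13.08, 12.93 and 13.38 in monolayer, 4.62-fold lower in sandwich. The list of NRF2-type genes lay nearer the background, with 4 of 16 higher and 3 lower. Peroxidases, catalase and superoxide dismutases were called both ways, 3 of 12 higher and 4 lower. Sod2, the mitochondrial superoxide dismutase, differed by 1.50 ± 0.10 and Cat by 0.96 ± 0.12, while Gpx1, Gpx3 and Prdx2, which remove peroxides, differed by -0.69 ± 0.08, -1.84 ± 0.18 and -0.53 ± 0.07.

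Plasma protein genes were higher for 23 of 29, yet albumin was not among them. Alb read 15.02, 15.02 and 15.004 in sandwich and 14.97, 15.05 and 14.97 in monolayer, next to 15.05, the highest value on the 6 arrays, and its difference was 0.02 ± 0.07 (adjusted p = 0.866). Another Alb probe set, of larger variance, differed by 0.21 and was called. Hrg, which binds heparin and plasminogen, differed by 3.05 ± 0.14, Lcat, which esterifies cholesterol in plasma, by 2.34 ± 0.10, Fetub by 1.82 ± 0.09, Ambp by 1.82 ± 0.12 and Igf1, the growth hormone-driven growth factor, by 1.82 ± 0.11. Apolipoproteins were higher for 16 of 19. Apoa2, of high density lipoprotein, read 10.27, 10.24 and 10.31 against 6.22, 6.79 and 5.84, 15.9-fold apart, and Apoc1, Apoa4 and Apoc2 differed by 3.29 ± 0.23, 3.03 ± 0.12 and 2.88 ± 0.12. Lipc, the hepatic lipase, was the 1 lower member, at -1.75 ± 0.14. Coagulation factors were higher for 15 of 24, with Plg at 2.89 ± 0.14, F10 at 2.02 ± 0.10 and prothrombin, F2, at 1.58 ± 0.10. The 3 lower members were tissue factor, F3, the trigger of clotting (-2.70 ± 0.15), and the plasminogen activators Plat (-1.69 ± 0.14) and Plau (-0.65 ± 0.11). In complement 15 of 23 were higher, led by C8g at 2.11 ± 0.11 and the lectin Mbl2 at 1.88 ± 0.11, and 4 were lower, among them Clu at -0.87 ± 0.07 and C1r at -0.48 ± 0.09. Acute phase genes were higher for 13 of 18, with Crp at 1.26 ± 0.13 and Hp at 0.83 ± 0.08. Of iron, heme and copper genes 15 of 28 were higher and 4 lower. Hjv, the coreceptor that drives hepcidin, read 9.33, 9.06 and 8.96 against 6.07, 6.25 and 5.52, a difference of 3.17 ± 0.16, and Hamp, hepcidin itself, differed by 1.01 ± 0.08.

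Transcription factors of the hepatocyte were split. Of 22 measured, 10 were higher and 6 lower. Hnf4a, the central factor of hepatocyte identity, differed by 0.54 ± 0.10. Dbp, a clock-driven factor, differed by 1.39 ± 0.11 and Creb3l3, which acts on lipid and acute phase genes, by 1.05 ± 0.09. Cebpa read 8.80, 8.57 and 8.45 in sandwich and 8.64, 7.76 and 7.84 in monolayer. One monolayer array lay among the sandwich arrays and the gene was not called (0.53 ± 0.24), although it was when that array, monolayer replicate 1, was left out, and with the replicate number as a block (adjusted p = 0.000253). Onecut2 was lower, at -1.56 ± 0.16, Gata6 by -0.92 ± 0.09 and Foxa2 by -0.58 ± 0.11. The circadian list, which holds Dbp, was higher for 7 of 16 genes, a count of 4 without monolayer replicate 3, and Bhlhe41, a repressor of the clock, was lower, at -2.61 ± 0.15. GTTAAT, part of the HNF1 site, was found on either strand in 9.11% of windows of genes higher in sandwich by at least 1 on the log2 scale, 5.81% of those lower by that much and 4.85% of measured genes. For CAAAGTC, the HNF4 core, the shares were 6.51%, 3.06% and 3.58%, and for TGANTCA, the AP-1 site, 7.03%, 6.12% and 5.43%.

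Metabolic nuclear receptors and their partners were higher for 12 of 30, lower for 3 and not called for 15. Of those that sense xenobiotics and bile acids, Nr1i3 (CAR) differed by 1.79 ± 0.19, Nr1i2 (PXR) by 0.88 ± 0.10 and Nr1h4 (FXR) by 0.83 ± 0.11. Ahr, which also senses xenobiotics, was lower, at -0.33. Differences over the list ran from -0.51 for the retinoic acid receptor Rarg to 2.02 ± 0.10 for its relative Rarb. Hormone and growth factor receptors were higher for 13 of 30 and lower for 6, the asialoglycoprotein receptor genes Asgr1 and Asgr2 by 2.20 ± 0.15 and 1.94 ± 0.12 higher, and the angiotensin receptor Agtr1a by 1.35 ± 0.11. Met, the receptor of hepatocyte growth factor, was lower, at -1.26 ± 0.15. In the liver lobule, genes of the portal end and the central end are expressed in zones. Portal genes were higher for 16 of 19 with a median of 1.42, and central genes for 9 of 20 with 4 lower and a median of 0.22. Central genes ran from Aldh1a1, which was lower, at -1.55 ± 0.09, to Cyp3a23-3a1, which was higher, at 3.44. Of the central genes 6 lay under the median of all values in both cultures, and of the portal genes 1. Among probe sets above the median level 2 central genes were lower. The 2 medians were not tested against each other.

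The genes lower in sandwich were headed by the actin cytoskeleton. Of 38 genes for actin and its binding proteins, 34 were lower, none was higher (0 also at an unadjusted p under 0.05 in the limma fit) and the median was -0.94. The median of the same genes was -0.21, -0.60 and -0.96 at days 1, 2 and 3. The control probe sets for beta-actin, described above, read lower in the same arrays; their part in the result was not tested. Tagln, which bundles actin in smooth muscle, read 7.33, 6.63 and 6.68 in sandwich and 11, 10.67 and 11.02 in monolayer, 16.2-fold lower in sandwich. The filament crosslinker Flna differed by -2.63 ± 0.12, and Ezr and Msn, which tie actin to the membrane, by -2.86 ± 0.09 and -2.99 ± 0.11. Acta2, the smooth muscle actin that marks activated stellate cells, read 8.11, 7.26 and 7.28 in sandwich and 9.06, 7.87 and 7.54 in monolayer. Its groups overlapped and it was not called (-0.61 ± 0.26, adjusted p = 0.0909), though it was with the replicate number as a block (adjusted p = 0.013), without monolayer replicate 3 or without sandwich replicate 1. Without monolayer replicate 1, its highest array, the difference was only -0.16 (adjusted p = 0.677 in limma). With the day 8 arrays alone and no block it was not called either (adjusted p = 0.219). Within each pair of same-numbered arrays the sandwich array was the lower one. Actin genes and many of their partners are known targets of serum response factor, which binds the CArG box. The box was found in 4 of 34 promoter windows of the actin list (11.8%). Among the genes lower in sandwich with a match, 3 are shown. Cnn2, a calponin, differed by -1.62 ± 0.11 and Fhl2, a LIM protein of focal adhesions, by -2.13 ± 0.12. The 120 bases before the start are from RefSeq on GRCr8, read 5′ to 3′ on the gene's strand, at chr19:68784195-68784314, minus strand for Acta1, chr7:10370313-10370432, minus strand for Cnn2 and chr9:52954541-52954660, minus strand for Fhl2. Capitals mark the CArG box.
Acta1: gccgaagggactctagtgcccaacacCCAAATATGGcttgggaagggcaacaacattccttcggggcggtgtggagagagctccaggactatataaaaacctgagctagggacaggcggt
Cnn2: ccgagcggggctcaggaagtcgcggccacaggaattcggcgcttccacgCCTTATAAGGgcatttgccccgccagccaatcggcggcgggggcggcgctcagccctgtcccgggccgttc
Fhl2: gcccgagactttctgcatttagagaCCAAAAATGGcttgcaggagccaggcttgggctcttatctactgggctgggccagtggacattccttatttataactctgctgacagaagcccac
The matches run from base -94 to -85 before the start in Acta1, from -71 to -62 in Cnn2 and from -95 to -86 in Fhl2, and overlap no other motif searched. The box is rare: on either strand it was found in 1.64% of all windows of 300 bases and in 1.35% of measured genes. It was found in 10 of 327 genes lower in sandwich by at least 1 on the log2 scale (3.06%), in 6 of 384 higher by that much (1.56%) and in 6 of 17 windows of the list of serum response factor targets.

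A CArG box did not go with one direction. Of the 20 measured genes on the list of serum response factor targets, 12 were lower and 2 higher. The higher ones were Egr1, at 12.08, 12.08 and 11.81 in sandwich and 10.98, 11.09 and 10.86 in monolayer, and Junb at 1.14 ± 0.10, both immediate early transcription factors. Egr1 holds 2 CArG matches before its start. Filip1l, which binds filamin, differed by -2.82 ± 0.13. Targets of YAP and TEAD, which respond to cell spreading and stiffness, were lower for 17 of 25 with 0 higher at an unadjusted p under 0.05. Ankrd1 read 7.04, 6.96 and 6.66 against 9.67, 9.58 and 9.95, 7.19-fold lower in sandwich, Myof, which repairs membranes, differed by -3.15 ± 0.16, and Axl, a receptor kinase, by -1.49 ± 0.16. GGAATG, the TEAD site, was found on either strand in 5 of 16 windows of that list, against 11.7% of measured genes. It was found in 14.1% of genes lower by at least 1 on the log2 scale and 14.8% of those higher by that much, so the shares of the 2 directions were close. Myosins and their small GTPase regulators were lower for 12 of 23, with Myl9, a light chain, at -0.98 ± 0.14, Rhoc at -0.82 ± 0.09 and the scaffold Iqgap1 at -1.33 ± 0.11. Mylk, the kinase that activates light chains, was higher at 0.77 ± 0.11.

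Other filaments were lower too. Of 32 intermediate filament and tubulin genes 19 were lower. Vim, the filament of mesenchymal cells, differed by -2.34 ± 0.15, Nes, of progenitors, by -2.80 ± 0.15, and Map2, which binds microtubules in neurons, by -3.79 ± 0.20. Krt8 and Krt18, the 2 keratins of normal hepatocytes, differed by -1.0 ± 0.09 and -0.73 ± 0.08. Krt7 and Krt19, keratins of bile duct cells that adult hepatocytes lack, lay further apart. Krt7 read 3.90, 3.83 and 4.31 in sandwich and 7.48, 7.36 and 6.86 in monolayer, and Krt19 read 4.92, 4.91 and 4.52 and 7.91, 7.84 and 8.16. All sandwich arrays of both genes lay under the median of all values and all monolayer arrays above it. Annexins and S100 proteins, which bind calcium and membranes, were lower for 14 of 22. Anxa1 read 7.94, 7.59 and 7.45 against 12.16, 12.24 and 12.23, 23.5-fold lower in sandwich, S100a11 differed by -1.33 ± 0.08 and S100a6 by -1.48 ± 0.10. Anxa8 was the 1 higher member, at 1.54 ± 0.16, and without sandwich replicate 2 there were 2. Cav1, the coat protein of caveolae, differed by -3.54 ± 0.21, and Plscr2, a phospholipid scramblase, by -4.29 ± 0.28. They belong to a list of caveola and membrane genes of which 9 of 19 were lower.

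Adhesion genes followed. Integrin and focal adhesion genes were lower for 21 of 34, with Lims1 at -1.46 ± 0.10, the tetraspanin Cd151 at -1.26 ± 0.08 and Cd44, a hyaluronan receptor, at -2.22 ± 0.11. The 3 higher members were Itga1, a collagen-binding integrin chain (1.14 ± 0.16), the tetraspanin Cd9 (1.11 ± 0.15) and the syndecan Sdc2 (0.81 ± 0.08). Junction genes were called both ways, 8 of 34 higher and 12 lower. The gap junction genes of the hepatocyte were higher: Gjb2, connexin 26, read 10.54, 10.79 and 10.62 in sandwich and 7.51, 7.90 and 7.66 in monolayer, 7.79-fold apart, and Gjb1, connexin 32, differed by 0.72 ± 0.10. E-cadherin, Cdh1, and N-cadherin, Cdh2, stood at 0.11 ± 0.12 and -0.26 ± 0.11 and were not called. Their anchor Ctnna1 was lower, at -1.12 ± 0.10 and the desmosomal cadherin Dsg2 by -1.03 ± 0.10. Of the tight junction claudins, Cldn3 and Cldn14 were higher by 0.45 ± 0.09 and 0.61 ± 0.11, and Cldn4 was lower, at -1.63 ± 0.13. Ceacam1, a canalicular adhesion molecule, differed by 1.04 ± 0.10.

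Matrix genes were read in a culture whose gel is itself collagen. Of 48 collagens, laminins and other matrix proteins 17 were lower, 4 higher and 27 not called. The count of lower genes was 11 among probe sets above the median level, and that of higher genes was 1 without monolayer replicate 1 or monolayer replicate 2 and 2 without monolayer replicate 3, sandwich replicate 1 or sandwich replicate 2. Lox, which crosslinks collagen, read 5.74, 5.31 and 5.03 in sandwich and 7.88, 7.87 and 8.29 in monolayer. Col4a1, of basement membranes, differed by -2.37 ± 0.18, Lama5, on the probe set used, by -1.70 ± 0.12 and Lamb2 by -2.30 ± 0.15. Col1a1, the main chain of fibrillar collagen, stood at 0.11 ± 0.14 and was not called. Of 36 proteases and inhibitors 17 were lower. Mmp2, gelatinase A, read 5.01, 5.31 and 5.65 against 8.16, 8.05 and 8.47, and its inhibitors Timp2 and Timp1 differed by -2.04 ± 0.17 and -1.86 ± 0.09, in the same direction as the protease. In the TGF-beta pathway 16 of 28 were lower. The ligand Tgfb3 differed by -1.89 ± 0.13, the receptor Tgfbr1 by -0.79 ± 0.09, the feedback inhibitor Skil by -1.89 ± 0.12 and the target Id3 by -1.45 ± 0.11. Among the activin chains Inhbb differed by -1.73 ± 0.10 and Inhbe, the liver chain, by 1.96 ± 0.11, in opposite directions. Igfbp7, a secreted binding protein, was lower, at -2.04 ± 0.14.

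Genes of cell division were lower in sandwich or not called. No member of the G1, replication and mitosis lists was called higher by limma, and 0 were at an unadjusted p under 0.05. After quantile normalization 1 gene of the G1 list was called higher. G1 regulators were lower for 10 of 20, replication genes for 17 of 28 and mitosis genes for 15 of 34. Among probe sets above the median level the G1 and mitosis counts were 6 and 8. Ccnd1, the cyclin that starts the cycle in hepatocytes, read 9.87, 9.40 and 9.65 in sandwich and 12.05, 11.67 and 11.62 in monolayer, 4.41-fold lower. Cdk4, its kinase, differed by -1.11 ± 0.09, the helicase subunit Mcm6 by -1.89 ± 0.13 and the clamp Pcna by -0.74 ± 0.09. Mki67, a marker of dividing cells, was low in both, at 3.41 ± 0.10 and 4.13 ± 0.10, a difference of -0.72 ± 0.10. TTCCCGC, the E2F site, was found on either strand in 10 of 26 windows of the replication list and in 7.55% of measured genes. p53 targets were lower for 9 of 23, with Mdm2, the ligase that removes p53, at -1.73 ± 0.09, Phlda3 at -1.17 ± 0.11 and Zmat3 at -0.94 ± 0.10, while Sesn1 and Perp were higher at 1.48 ± 0.13 and 0.74 ± 0.10.

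Inflammatory genes had no common direction, with 10 of 41 higher (24.4%) and 8 lower (19.5%), beside 15.6% and 20.7% of all genes. Neutrophil-attracting chemokines of one family were split. Cxcl1 read 11.76, 11.62 and 11.51 against 10.09, 10.03 and 9.71 and Cxcl2 differed by 1.48 ± 0.12, both higher in sandwich, while Cxcl3 and Cxcl6 were lower, at -1.62 ± 0.14 and -1.72 ± 0.11. Ccl2, which draws monocytes, was lower, at -1.89 ± 0.17, and Nfkbiz, an inhibitor-type NF-kB cofactor, was higher by 1.78 ± 0.13. Interferon and antigen presentation genes were lower for 13 of 33, with Gbp2 at -2.71 ± 0.13 and the peptide pump genes Tap1 and Tap2 at -0.61 ± 0.09 and -0.76 ± 0.10. Of immediate early genes 11 of 30 were higher and 5 lower, with a median of 0.10. The higher ones included Zfp36, which destabilizes cytokine mRNA (1.64 ± 0.14), and Dusp5 (1.19 ± 0.12), while Dusp6 was lower (-0.97 ± 0.19). Both are phosphatases of ERK.

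Lists of the general machinery of the cell were read last. Of 54 respiratory chain and ATP synthase subunits 35 were higher, none by 1 on the log2 scale, with a median of 0.25, and the count was 23 without sandwich replicate 3 and 20 when only the day 8 arrays were fitted. Ndufb3, of complex I, differed by 0.88 ± 0.09 and Uqcrq, of complex III, by 0.62 ± 0.08. In the tricarboxylic acid cycle 10 of 21 genes were higher. Idh2 was lower, at -1.21 ± 0.10, and Idh1, its cytosolic counterpart, higher by 0.76 ± 0.08. Ribosomal protein genes were lower for 18 of 36, with a median of -0.19, and the count was 10 without monolayer replicate 3, 11 without sandwich replicate 1 and 7 when only the day 8 arrays were fitted. Proteasome subunits were lower for 6 of 30, a share near the 20.7% of all genes, and for 3 without sandwich replicate 1. Heat shock genes were lower for 8 of 13, with the small chaperones Cryab and Hspb1 at -1.28 ± 0.10 and -1.17 ± 0.12. Chaperones of the endoplasmic reticulum ran the other way for 7 of 20, with Hspa5 at 0.88 ± 0.10 and Herpud1 at 1.35 ± 0.09. Of the rest 2 were lower and 11 not called, the median was 0.16 and the lowest difference was -0.55, for Pdia3. Targets of the amino acid response were higher for 13 of 18, with Trib3 at 1.39 ± 0.12, although Ddit3, a target of the same factor Atf4, was lower at -0.67 ± 0.11. Lysosomal genes were lower for 16 of 29, with Ctsa furthest, at -1.01 ± 0.09. Lgals3, a galectin that tags damaged lysosomes, is not a member of that list and differed by -2.69 ± 0.10.

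The labelled cell type was checked against its markers, and markers of other liver cells were read beside it. In bulk samples fewer cells of a type and less RNA per cell cannot be told apart. Of 15 hepatocyte markers 10 were higher and 2 lower, the lower ones being Krt8 and Krt18. The log2 of their summed level was 17.15 to 17.22 on the sandwich arrays and 16.91 to 17.08 on the monolayer arrays. Cholangiocyte markers were lower for 4 of 9, or 1 among probe sets above the median level, with a sum of 10.31 to 10.52 against 11.002 to 11.17. Besides Krt7 and Krt19 these were Sctr, the secretin receptor (-1.26 ± 0.09), and Prom1 (-0.92 ± 0.13), while Epcam stood at -0.23 ± 0.13, Cftr at -0.04 ± 0.13 and Aqp1 at -0.03 ± 0.12, not called. Stellate cell and fibroblast markers were lower for 3 of 19 (15.8%, beside 20.7% of all genes) and higher for 1, with sums of 10.24 to 10.70 and 10.46 to 10.86 that overlap. Des (desmin), Pdgfrb and Lrat, which define these cells, stood at -0.11 ± 0.11, 0.09 ± 0.17 and -0.20 ± 0.11, not called. Differences over the whole list ran from -0.90 for Col1a2 to 1.84 for Rgs5. Endothelial markers were higher for 5 of 19, with sums of 10.51 to 10.77 against 10.04 to 10.15, and lower for 2, Esam and Ramp2. Among probe sets above the median level the counts were 3 and 1. Among the higher ones Clec14a read 7.99, 7.72 and 6.82 in sandwich and 3.47, 3.55 and 3.31 in monolayer, Rbp7 differed by 2.81 ± 0.24 and Fcgr2b by 2.38 ± 0.18, while Pecam1, Stab2 and Lyve1 stood at 0.11 ± 0.09, -0.08 ± 0.13 and -0.13 ± 0.10, not called, with means under the median of all values in both cultures. Macrophage markers were higher for 2 of 18 and lower for 2, with the first count 1 without sandwich replicate 2 or 3 and the second 1 without monolayer replicate 1 or sandwich replicate 1, and with overlapping sums of 11.73 to 12.08 and 11.91 to 12.17. None of 17 lymphocyte markers was called in limma, where 3 were higher and 0 lower at an unadjusted p under 0.05 and 3 were called when each array was centred on its median, with overlapping sums of 8.88 to 9.03 and 8.85 to 8.95. Neutrophil and erythroid markers were higher for 2 of 11, or 1 without monolayer replicate 2 or sandwich replicate 3, with sums of 14.20 to 14.27 and 13.33 to 13.68, and Lcn2, which hepatocytes also make, differed by 0.70 ± 0.08. The part of other cells in the results was not tested.

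Some of the differences at day 8 were already there at day 3 and some were not. Of the genes called higher at day 8, 1119 were also higher at day 3, 33 were lower there and 1063 were not called. Of those called lower at day 8, 1307 were also lower at day 3, 26 were higher and 1610 were not called. The change of the difference itself was tested as day 8 minus day 3, and 1253 genes passed, or 8.81% of those measured, 651 upward and 602 downward. Acta1 differed by -5.66 ± 0.30 at day 3, with a change of 0.003 ± 0.42 by day 8. Over the same days list medians went from 0.75 to 1.74 for the urea cycle and from -0.34 to -0.41 for DNA replication. Krt7 and Krt19 stood at -0.19 ± 0.15 and -0.08 ± 0.11 at day 3, neither called. Their monolayer means then went from 3.93 to 7.23 and from 4.52 to 7.97, while the sandwich means at day 8 were 4.01 and 4.78. The changes were -3.03 ± 0.22 (adjusted p = 1.56e-09) and -3.11 ± 0.15 (adjusted p = 4.63e-12). Pamr1, Mmp2 and Lhfpl6 changed by -2.54 ± 0.13, -2.49 ± 0.20 and -2.45 ± 0.27, and their monolayer levels were called higher at day 8 than at day 3.

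The upward changes lay in the sandwich level, the monolayer level or both. Cyp8b1 differed by 0.44 ± 0.12 at day 3, and its sandwich mean then went from 6.09 to 8.59 while the monolayer mean was 5.66 on both days. Ugt2b1 and Cyp17a1 changed by 2.42 ± 0.12 and 2.80 ± 0.17 in sandwich and by -0.24 ± 0.12 and 0.18 ± 0.17 in monolayer, the last pair not called. Scd went the other way about: its sandwich mean was 13.44 and 13.52, and the monolayer mean went from 12.78 to 10.44. Apoa4 changed in both cultures, by 1.46 ± 0.12 in sandwich and -1.12 ± 0.12 in monolayer. Npy, neuropeptide Y, changed sides. It was lower in sandwich at day 3, at -2.10 ± 0.17, and higher at day 8, at 12.24, 12.56 and 12.50 against 10.86, 11.10 and 10.19, a difference of 1.72 ± 0.17. The change was 3.81 ± 0.24 (adjusted p = 2.62e-10), the largest upward change among called genes, and the monolayer mean was 10.34 at day 3 and 10.72 at day 8. In the neuronal and secretory list that holds it, 9 of 29 genes were lower at day 8 and Npy was the 1 higher member. Cpe, a carboxypeptidase that trims peptide hormones, differed by -4.19 ± 0.16, Sncg by -2.26 ± 0.14 and Nefl, a neurofilament, by -1.81 ± 0.12. Among probe sets above the median level the count of lower members was 1. The list of bile duct and progenitor genes was lower for 12 of 31 at day 8, or 6 among probe sets above the median level, and higher for 3, or 6 without sandwich replicate 3. Afp, the fetal relative of albumin, was among the higher ones, at 1.06 ± 0.10.

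**Figure D5:**
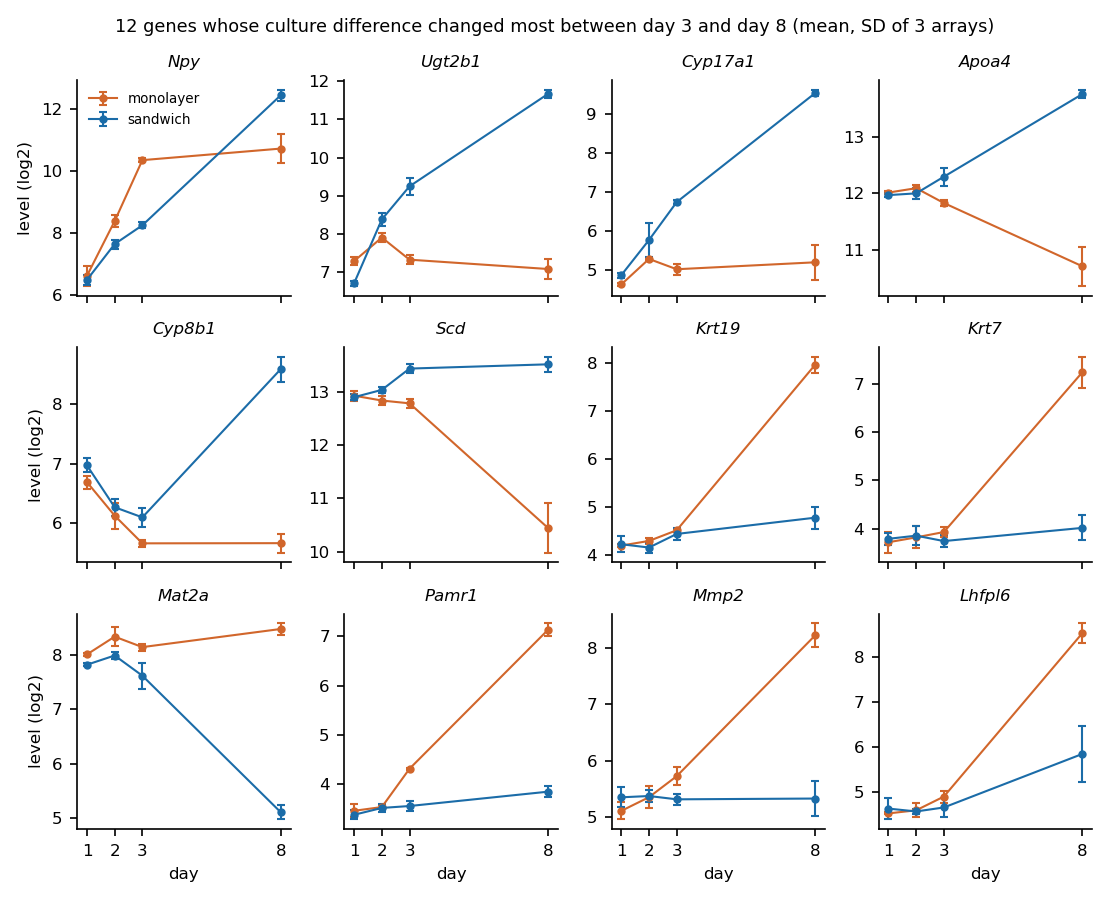
Mean level (log2, vertical axis, bars give the SD of 3 arrays) by day (horizontal axis) in sandwich (blue) and monolayer (orange) for the 6 genes with the largest upward and the 6 with the largest downward change of the culture difference from day 3 to day 8. Krt19, Krt7, Pamr1, Mmp2 and Lhfpl6 rise in monolayer after day 3, Mat2a falls in sandwich, and the lines of Npy cross.

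Where a gene has several probe sets they did not always give one answer. Of 4525 such genes, 642 had all probe sets called in one direction, 1567 had some, 2276 none, and 40 had probe sets called in opposite directions. The widest gap was in Tsc22d1, a leucine zipper gene with several known transcript forms, where one probe set differed by 0.42 ± 0.10 and another by -3.0 ± 0.10. The first had means of 5.0 and 4.58, under the median of all values, and the second 9.63 and 12.63. Rrbp1, a ribosome-binding protein of the endoplasmic reticulum, had probe sets at 1.48 ± 0.12 and -0.59 ± 0.15, both well above that median. Lmo7, Lama5, Ptprs and Synj2bp were the other genes with the widest gaps, with a higher probe set at 0.41, 0.39, 0.84 and 0.73 and a lower one at -1.76, -1.70, -0.84 and -0.93. For these genes the direction depends on which probe set is read.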

How the data were processed

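Gene expression was measured on 24 Affymetrix arrays of rat hepatocytes, of which the 6 of day 8 are compared here. The deposited values are log2 probe set levels that the authors had already normalized. Processing notes of the submitters list RMA and limma without saying which step each did. The values were used as deposited. Of 31099 probe sets, 57 controls were left out, and of the 31042 tested, 20826 carried 1 gene symbol, 436 several and 9780 none. A gene was read by its probe set of highest mean over all arrays, giving 14217 genes. limma 3.58.1 in R 4.3.3 fitted 1 mean per group to all 24 arrays, with two-sided tests and Benjamini-Hochberg adjustment over all probe sets. It was tested on simulated data first. The number of arrays limits the precision. Promoter windows came from RefSeq, build GRCr8, with 11700 genes matched.

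Same-numbered day 8 arrays of the 2 cultures deviated together, with correlations of 0.423, 0.124 and 0.248, so the numbers were taken to pair them at day 8. At days 1, 2 and 3 the same correlations ran from -0.433 to 0.408 and do not pair the arrays. No label says that the number marks a pair. The fit with the number as a block used all 24 arrays, also those of the days at which the number does not pair them. The block p-values printed for single genes come from that fit. A second block fit used the arrays of the compared days only. Other alternatives were the scaling, the low-level filter, the variance model, the probe set per gene, the day 8 arrays alone and leaving out each array. The low-level filter kept probe sets whose mean over all 24 arrays lay above the median of all values. List members it left out were counted as not called, so a smaller count under it can come from members left out.

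The comparison and its 73 gene lists were chosen with earlier results of these data known. Genes named are the 15 largest differences each way without overlap, 5 members per list by adjusted p with up to 5 running against it, all members of lists of up to 12, the isoform pairs, the 6 largest changes from day 3 each way, the 6 widest probe set gaps and 19 fixed genes. Des, Pdgfrb, Lrat, Pecam1, Stab2 and Lyve1 are named as cell type markers.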

Additional observations from a re-analysis of the deposited data

Results flagged for a closer look

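By the limma test of the change itself, the difference between sandwich and monolayer at day 8 differed from that at day 3 for 1253 of 14217 genes. The 12 flagged here are those with the largest changes. The 6 largest upward changes were 3.81 for Npy, 2.66 for Ugt2b1, 2.62 for Cyp17a1, 2.57 for Apoa4, 2.50 for Cyp8b1 and 2.42 for Scd. The 6 largest downward changes were -3.11 for Krt19, -3.03 for Krt7, -2.84 for Mat2a, -2.54 for Pamr1, -2.49 for Mmp2 and -2.45 for Lhfpl6. The test for a single outlying array needs 4 arrays in a group and was not run.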

How the results depend on the processing

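Under all alternatives run, the counts of called probe sets and genes stayed within 1.5 times the main ones. The 12 changes from day 3 kept their direction and their call in all 176 values computed for them. The low-level filter left some of these genes out, so their changes were not computed under it. Pairing arrays by replicate number as a block gave 5648 genes called at day 8 in place of 5158, all 5158 among them in the same direction, and 5273 with the block and the day 8 arrays alone, a choice added after seeing the data, of which 4848 were shared. With the day 8 arrays alone, with or without the block, the hepatocyte marker Ttr lost its call. With both choices the counts of lower ribosomal protein and proteasome genes were 11 and 3 in place of 18 and 6. Of the counts of list members, 2066 under an alternative stayed within 1.5 times and 124 did not. Over the named genes, 7290 of the values under an alternative kept direction and side of the threshold, 175 lost the call, 60 gained it and 4 turned. Those 4 came from reading a gene by its probe set of largest variance: Hk1 stood at -0.68, Pfkfb3 at -0.37, Rrbp1 at 1.48 and Synj2bp at -0.93. Scaling by quantiles gave 5353 called genes, and centring each array on its median gave 4985. With 1 array left out, called genes ranged from 4446 to 4738. No detection calls were given, so differences among low levels have an unknown background.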
